A study of Homo sapiens with 12 samples.

Results

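The genes described here are 10 that write, copy or remove DNA methylation or form Polycomb repressive complex 2: *DNMT1*, *UHRF1*, *HELLS*, *DNMT3A*, *DNMT3B*, *TET1*, *TET2*, *TET3*, *EZH2* and *SUZ12*. They were picked by symbol from the 23346 genes of an RNA-seq table, and 10 of 10 were found. GCTM-5 is a monoclonal antibody that binds a large glycoprotein complex on the surface of some pancreatic cancer cells. SW1990 and CFPAC-1, 2 established human pancreatic adenocarcinoma cell lines grown as monolayers with no other treatment stated, were stained with this antibody and sorted by flow cytometry into strongly stained (GCTM-5 positive) and unstained (GCTM-5 negative) cells. PolyA RNA was sequenced from 12 samples in 4 groups of 3, namely negative and positive cells of each line. The samples came from sorts made in triplicate, so p-values measure the spread between these sorted samples, and a comparison of lines compares 2 lines with each other.

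DNMT1 is the maintenance methyltransferase that copies methylation onto newly made DNA. UHRF1 recognises the hemimethylated DNA left by replication and brings DNMT1 to it, and HELLS is a chromatin remodeller that helps methylation reach packed DNA. DNMT3A and DNMT3B set new methylation, and the TET enzymes oxidise methylated cytosine on the way to its removal. EZH2 is the catalytic subunit of Polycomb repressive complex 2 (PRC2), which methylates histone H3 to silence developmental genes, and SUZ12 is the subunit that holds that complex together. Copying of these marks is tied to DNA replication, and *DNMT1*, *UHRF1*, *HELLS* and *EZH2* are known to be transcribed more in dividing than in resting cells.

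Promoters are shown for the genes that were higher in positive CFPAC-1 cells, with the words bound by E2F factors, the regulators of replication genes, in capitals. The RefSeq windows run from 250 bases before to 50 bases after an annotated start and are given on the gene's own strand, in GRCh38.p14 coordinates. For *DNMT3B* that start lies inside the gene. The words searched on both strands were TTTCCCGC, TTTCGCGC, TTTGCCGC and TTTGGCGC, and their reverse complements were counted as the same word. The windows are chr19:10194904-10195203 (minus strand) for *DNMT1*, chr19:4909251-4909550 (plus) for *UHRF1*, chr10:94545538-94545837 (plus) for *HELLS*, chr7:148884242-148884541 (minus) for *EZH2*, chr17:31936757-31937056 (plus) for *SUZ12* and chr20:32779602-32779901 (plus) for *DNMT3B*.
DNMT1: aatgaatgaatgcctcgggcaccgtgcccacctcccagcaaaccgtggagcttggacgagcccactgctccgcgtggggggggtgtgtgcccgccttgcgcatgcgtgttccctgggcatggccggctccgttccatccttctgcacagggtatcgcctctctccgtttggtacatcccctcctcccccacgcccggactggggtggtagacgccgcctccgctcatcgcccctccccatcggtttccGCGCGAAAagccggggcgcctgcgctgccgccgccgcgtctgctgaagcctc
UHRF1: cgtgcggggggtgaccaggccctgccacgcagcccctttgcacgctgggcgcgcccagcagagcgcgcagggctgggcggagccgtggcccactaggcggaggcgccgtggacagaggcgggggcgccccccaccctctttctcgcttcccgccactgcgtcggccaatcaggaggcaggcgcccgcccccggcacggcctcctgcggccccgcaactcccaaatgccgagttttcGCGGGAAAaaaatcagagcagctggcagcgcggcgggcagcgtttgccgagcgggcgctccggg
HELLS: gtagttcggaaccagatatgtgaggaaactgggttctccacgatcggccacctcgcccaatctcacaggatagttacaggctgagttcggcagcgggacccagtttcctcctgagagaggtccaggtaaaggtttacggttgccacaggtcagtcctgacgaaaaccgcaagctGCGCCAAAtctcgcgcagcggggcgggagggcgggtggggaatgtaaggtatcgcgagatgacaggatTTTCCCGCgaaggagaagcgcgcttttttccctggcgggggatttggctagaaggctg
EZH2: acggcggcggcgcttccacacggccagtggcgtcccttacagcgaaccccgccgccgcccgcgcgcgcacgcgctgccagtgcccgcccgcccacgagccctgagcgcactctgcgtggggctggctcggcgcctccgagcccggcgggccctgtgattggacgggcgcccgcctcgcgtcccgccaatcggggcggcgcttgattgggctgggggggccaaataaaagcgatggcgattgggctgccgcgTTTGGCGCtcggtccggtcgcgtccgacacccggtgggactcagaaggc
SUZ12: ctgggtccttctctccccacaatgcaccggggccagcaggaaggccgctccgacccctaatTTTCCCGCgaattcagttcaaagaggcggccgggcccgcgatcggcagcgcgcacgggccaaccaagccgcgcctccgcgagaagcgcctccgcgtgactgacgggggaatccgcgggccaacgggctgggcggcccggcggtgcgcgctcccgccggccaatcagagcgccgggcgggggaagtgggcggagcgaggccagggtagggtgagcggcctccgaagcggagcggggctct
DNMT3B: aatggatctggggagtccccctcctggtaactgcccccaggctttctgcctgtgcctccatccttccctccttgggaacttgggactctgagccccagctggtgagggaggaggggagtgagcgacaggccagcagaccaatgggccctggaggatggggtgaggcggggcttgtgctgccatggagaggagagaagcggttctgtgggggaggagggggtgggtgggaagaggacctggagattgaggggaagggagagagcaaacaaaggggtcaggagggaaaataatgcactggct

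A word lay in at least 1 window of 5 of the 10 genes. It was found in 3.99% of the 27305 genes with RefSeq windows, in 3.31% of the 35116 windows themselves, and in 16 of the 23 matched genes of a list of S phase genes (69.6%). Of the 16236 genes fitted here, 10612 could be matched to windows, and 6.20% of those held a word, which leaves the share over all fitted genes unknown. Positions are distances in bases from the first transcribed base, negative before it. The word began at -2 in *DNMT1*, at -14 in *UHRF1*, at -76 and -8 in *HELLS*, at 1 in *EZH2* and at -189 in *SUZ12*. A further *UHRF1* window, at chr19:4909894-4910193, held a word at -160 from its own start. The windows of *DNMT3A*, *DNMT3B*, *TET1*, *TET2* and *TET3* held none of these 4 words. The *DNMT3B* window lies at an annotated start inside the gene, past its first base. The promoter at the upstream end of *DNMT3B* was therefore not searched. That internal window also had few CpG sites, the dinucleotides that these enzymes methylate. It held 3, against 22 to 46 in the printed windows of the other 5 genes and a median of 14.0 over all windows. Each of the 4 words itself contains a CpG, and the shares above were not matched for CpG content. The 5 of 10 genes with a word are therefore not a measure of enrichment. These matches describe the letters of the windows, and binding was not measured.

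Values are read counts scaled by gene length and library size (RPKM), so that levels can be compared between genes per unit of length. Tests were made with limma on log2(RPKM + 0.1) over 16236 genes with a mean of at least 0.1 RPKM, a filter that 10 of the 10 genes passed. Calls were made where the p adjusted over all those genes by Benjamini-Hochberg was under 0.05. Positive CFPAC-1 cells gave both the smallest library (replicate 3, a recovered total of 9969697 reads) and the largest (replicate 1, 26159330). The epithelial markers *EPCAM*, *CDH1* and keratins were present in all groups, with summed levels of 1595 to 1942 RPKM in negative SW1990 cells, 4360 to 4841 in positive SW1990 cells, and, for CFPAC-1 5411 to 6173 (negative) and 6676 to 8162 (positive). Summed over their lists in CFPAC-1, leukocyte markers gave 179 to 210 RPKM in negative and 163 to 228 RPKM in positive cells, most of it *CD68* and *LYZ*, with *PTPRC* at a mean of at most 0.0163 RPKM in any group. Fibroblast markers summed to 1.42 to 1.85 (negative) and 1.62 to 2.40 RPKM (positive), with *THY1* listed at 0 in all samples, and endothelial markers to 0.989 to 1.49 and 0.751 to 0.995 RPKM. Of the fitted genes of these lists, 1 of 3 leukocyte, 0 of 3 fibroblast and 0 of 3 endothelial genes were called in CFPAC-1. Over all genes, 22.3% were called higher and 14.2% lower in that line.

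In CFPAC-1, 6 of the 10 genes rose in GCTM-5 positive cells and none fell. Against them, 22.3% of all genes tested were called higher and 14.2% lower. The 6 were the maintenance genes *UHRF1*, *HELLS* and *DNMT1*, the de novo enzyme *DNMT3B*, and the PRC2 subunits *EZH2* and *SUZ12*, with fitted increases from 1.67-fold to 4.06-fold. In SW1990 these 6 genes were not called, while *TET3* rose and *TET1* and *TET2* fell, where 11.3% of all genes were called higher and 16.9% lower. The median log2 change of the 10 genes was 0.94 in CFPAC-1, beside 0.05 for all genes, and 0.12 in SW1990, beside -0.04 for all genes. The study names a criterion of over 2-fold and p under 0.01. Taken with an unadjusted p in each line, it was met by *UHRF1*, *HELLS*, *DNMT1*, *DNMT3B* and *EZH2* as 5 higher genes in CFPAC-1 (5.65% of all genes) and by *TET1* as 1 lower gene in SW1990 (7.48%).

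**Figure D1:**
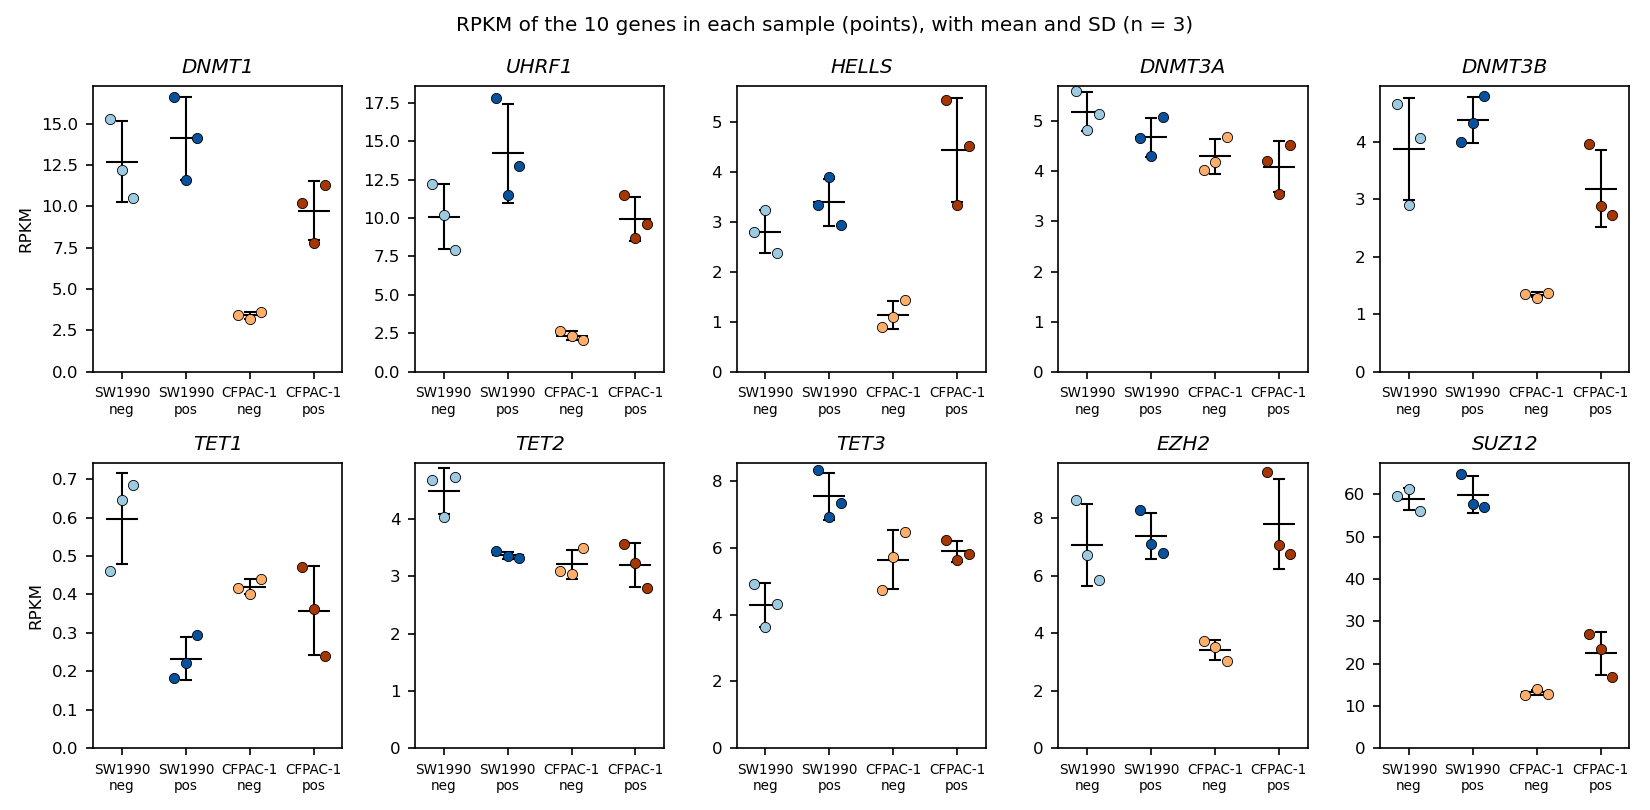
RPKM (vertical axis of each panel, from 0) of the 10 genes in the 12 samples, by line and GCTM-5 group; points are samples, wide ticks are means and error bars are SD (n = 3). The 3 negative CFPAC-1 samples lie below all others for DNMT1, UHRF1, HELLS, DNMT3B, EZH2 and SUZ12, and SUZ12 stands at 56.0 to 64.9 RPKM in SW1990.

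*DNMT1* was listed at 15.3, 12.2 and 10.5 RPKM in negative SW1990 cells and at 16.6, 11.6 and 14.1 RPKM in positive SW1990 cells, in replicate order. In CFPAC-1 it stood at 3.46, 3.17 and 3.60 RPKM in negative cells and at 10.2, 7.80 and 11.3 RPKM in positive cells. The negative CFPAC-1 samples lay apart below the rest, and the positive CFPAC-1 samples reached into the range of negative SW1990 cells. The mean rose from 3.41 ± 0.219 to 9.74 ± 1.77 RPKM in CFPAC-1 (SD, n = 3), a log2 change of 1.47 (SE 0.18, adjusted p = 0.00012, limma). In SW1990 the means were 12.7 ± 2.43 and 14.1 ± 2.49 RPKM (SD, n = 3), and the log2 change of 0.16 had a 95% interval from -0.23 to 0.54. In GRCh37 *DNMT1* lies at chr19:10244018-10341962 on the minus strand and overlaps *S1PR2* on the same strand, so reads from shared exons could belong to either gene.

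*UHRF1*, the partner that guides DNMT1 (GRCh37 chr19:4903092-4962165, plus strand), had the largest increase of the 10 genes in CFPAC-1. Its samples stood at 2.68, 2.35 and 2.07 RPKM in negative CFPAC-1 cells, while positive ones had 11.5, 8.67 and 9.60 RPKM. The groups did not overlap, and the log2 change was 2.02 (SE 0.19, adjusted p = 3.31e-05, limma), or 4.06-fold. In SW1990 the samples stood at 12.2, 10.2 and 7.93 RPKM in negative cells and at 17.8, 11.5 and 13.4 RPKM in positive cells. Those groups overlapped, and the log2 change of 0.49 (SE 0.19) did not pass with an adjusted p of 0.0818, over a 95% interval from 0.07 to 0.91. It passed in 4 of 22 alternative settings, among them leaving out negative SW1990 replicate 1 (0.63, adjusted p = 0.0436) and positive SW1990 replicate 2 (0.63, adjusted p = 0.0467).

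*HELLS*, the remodeller (GRCh37 chr10:96305086-96373662, plus strand), was low in negative CFPAC-1 cells, at 0.895, 1.09 and 1.44 RPKM from 54 to 89 reads a sample. Positive CFPAC-1 cells had 5.45, 3.35 and 4.53 RPKM, and the log2 change was 1.87 (SE 0.22, adjusted p = 0.000105, limma). SW1990 samples lay between these groups or within the upper one, at 2.81, 3.24 and 2.39 RPKM in negative and 3.34, 3.90 and 2.95 RPKM in positive cells. The SW1990 change of 0.26 on the log2 scale had a 95% interval from -0.21 to 0.74. A lncRNA gene that is not in the table overlaps *HELLS* on its strand.

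The de novo enzymes parted from each other. *DNMT3B* (GRCh37 chr20:31350191-31397165, plus strand) stood at 1.35, 1.29 and 1.38 RPKM in negative CFPAC-1 cells, while positive ones had 3.96, 2.88 and 2.73 RPKM. That was an increase of 1.17 on the log2 scale (SE 0.19, adjusted p = 0.000763, limma). In SW1990 *DNMT3B* had 4.67, 2.91 and 4.07 RPKM in negative and 4.00, 4.34 and 4.80 RPKM in positive cells, and the log2 change of 0.19 had a 95% interval from -0.23 to 0.61.

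*DNMT3A*, the other de novo enzyme (GRCh37 chr2:25450724-25565459, minus strand), spanned 3.54 to 5.60 RPKM over all 12 samples. Its group means were 5.19 ± 0.387 in negative SW1990, 4.68 ± 0.393 in positive SW1990, 4.30 ± 0.353 in negative CFPAC-1 and 4.09 ± 0.509 RPKM in positive CFPAC-1 cells (SD, n = 3). The ranges of groups next to each other in that order overlapped. Its log2 change was -0.07 in CFPAC-1, with a 95% interval from -0.36 to 0.21, and -0.15 in SW1990, with an interval from -0.43 to 0.14. Per unit of length, the mean level of *DNMT3A* was above that of *DNMT3B* in all 4 groups, and by the most in negative CFPAC-1 cells (4.30 against 1.34 RPKM).

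The TET genes were called in SW1990 and not in CFPAC-1. With 1 of the 10 genes higher and 2 lower in SW1990, these counts were near the shares over all genes (11.3% and 16.9%). The difference between the lines passed for *TET3* (adjusted p = 0.0213, limma) but not for *TET1* (0.101) or *TET2* (0.147). *TET3* (GRCh37 chr2:74212037-74335303, plus strand) rose from 4.92, 3.62 and 4.32 RPKM in negative to 8.31, 6.93 and 7.34 RPKM in positive SW1990 cells, a log2 change of 0.81 (SE 0.15, adjusted p = 0.00136, limma). The groups did not overlap, and the call held in 22 of 22 alternative settings. In CFPAC-1 *TET3* had 4.73, 5.71 and 6.48 RPKM in negative and 6.23, 5.62 and 5.81 RPKM in positive cells. The log2 change there had a 95% interval from -0.25 to 0.39. A lncRNA gene that is not in the table overlaps *TET3* on its strand.

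*TET1* was the lowest of the 10 genes in each group (GRCh37 chr10:70320094-70454244, plus strand). It fell from 0.462, 0.645 and 0.684 RPKM in negative SW1990 cells, on 91 to 144 reads a sample, to 0.183, 0.221 and 0.294 RPKM in positive ones, on 34 to 50 reads. That was a log2 change of -1.07 (SE 0.25, adjusted p = 0.0077, limma), called in all 21 alternative settings that gave a value. In CFPAC-1 the samples ranged from 0.401 to 0.440 RPKM in negative and from 0.241 to 0.471 RPKM in positive cells, and the log2 change of -0.21 had a 95% interval from -0.77 to 0.34.

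*TET2* (GRCh37 chr4:106067032-106200973, plus strand) stood at 4.69, 4.04 and 4.74 RPKM in negative SW1990 cells and at 3.44, 3.36 and 3.32 RPKM in positive ones. These groups did not overlap, and the log2 change was -0.40 (SE 0.13, adjusted p = 0.0409, limma). This call was lost in 11 of 22 alternative settings, with adjusted p up to 0.13. Leaving out negative SW1990 replicate 1 or 3 or positive SW1990 replicate 1, 2 or 3 gave log2 changes from -0.41 to -0.36 and adjusted p from 0.0763 to 0.13, and leaving out any negative CFPAC-1 sample gave -0.40 and adjusted p from 0.0518 to 0.0568. In CFPAC-1 it ranged from 3.05 to 3.50 RPKM in negative and from 2.79 to 3.57 RPKM in positive cells, with a 95% interval of the log2 change from -0.30 to 0.28. Per unit of length, *TET3* thus went from the level of *TET2* in negative SW1990 cells (means of 4.29 and 4.49 RPKM) to above it in positive ones (7.53 and 3.37 RPKM).

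Other markers moved along with the TET genes in SW1990. Summed endothelial markers fell from between 14.8 and 18.8 RPKM in negative to between 1.47 and 2.05 RPKM in positive SW1990 cells, most of it *CDH5*. Summed fibroblast markers fell from between 12.7 and 22.6 to between 3.90 and 4.88 RPKM, most of it *LUM*, while *THY1* was at 0 and *DCN* had a mean of 0.0114 RPKM in negative cells. Summed leukocyte markers, most of it *CD68*, went from between 35.6 and 49.9 to between 16.2 and 34.7 RPKM, with *CD3E* at 0 in both. Of the markers that were fitted, 3 of 3 fibroblast, 1 of 3 endothelial and 2 of 3 leukocyte genes were called lower in positive SW1990 cells. Of the epithelial genes, 5 of 6 were called higher. Over all genes 16.9% were called lower and 11.3% higher. The fibroblast list has 8 genes, the endothelial 4 and the leukocyte 6. *PDGFRB* passed the filter only through negative SW1990 cells (mean of 1.76 RPKM, at most 0.0554 in any other group), so its direction was set by the filter. The part of these differences in the TET values was not tested. In sorted bulk samples, fewer cells of a type and less RNA per cell cannot be told apart.

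*EZH2*, the PRC2 enzyme (GRCh37 chr7:148504349-148581413, minus strand), stood at 3.72, 3.54 and 3.04 RPKM in negative CFPAC-1 cells, while positive ones had 9.61, 7.07 and 6.74 RPKM. The log2 change was 1.15 (SE 0.17, adjusted p = 0.000471, limma). In SW1990 it had 8.64, 6.72 and 5.87 RPKM in negative and 8.29, 7.10 and 6.79 RPKM in positive cells, with a 95% interval of the log2 change from -0.30 to 0.45. Positive CFPAC-1 cells thus overlapped both SW1990 groups, and negative CFPAC-1 cells lay below them.

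*EZH1*, the alternative enzyme of PRC2 and chosen for mention after its values were seen, had another order. Its mean level in CFPAC-1 was 14.8 ± 0.552 (negative) and 13.0 ± 1.56 RPKM (positive), and SW1990 had 9.20 ± 1.58 (negative) and 7.23 ± 1.30 RPKM (positive; SD, n = 3). Neither change passed the test, at -0.19 (adjusted p = 0.373, limma) in CFPAC-1 and -0.34 (adjusted p = 0.135, limma) in SW1990 on the log2 scale. Mean *EZH1* was above mean *EZH2* per unit of length in 3 of the 4 groups, and positive SW1990 cells had 7.23 against 7.39 RPKM.

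*SUZ12* was the highest of the 10 genes in each group (GRCh37 chr17:30264026-30328057, plus strand). Its samples stood at 59.5, 61.2 and 56.0 RPKM in negative and 64.9, 57.8 and 56.9 RPKM in positive SW1990 cells. In CFPAC-1 they stood at 12.7, 13.9 and 12.9 RPKM in negative and 27.0, 23.4 and 16.8 RPKM in positive cells. The GCTM-5 groups overlapped in SW1990, with a 95% interval of the log2 change from -0.28 to 0.33, and were apart in CFPAC-1, at 0.74 (SE 0.14, adjusted p = 0.0019, limma). The pseudogene *SUZ12P* shares sequence with *SUZ12* and held 1.25% to 2.40% as many reads. It moved in the same way in CFPAC-1 (1.05, adjusted p = 0.000397, limma). *SUZ12P* was also higher in SW1990 than in CFPAC-1, by 2.55 in negative and 1.31 in positive cells on the log2 scale. How reads common to both genes were counted is not given in the sources used here.

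**Figure D2:**
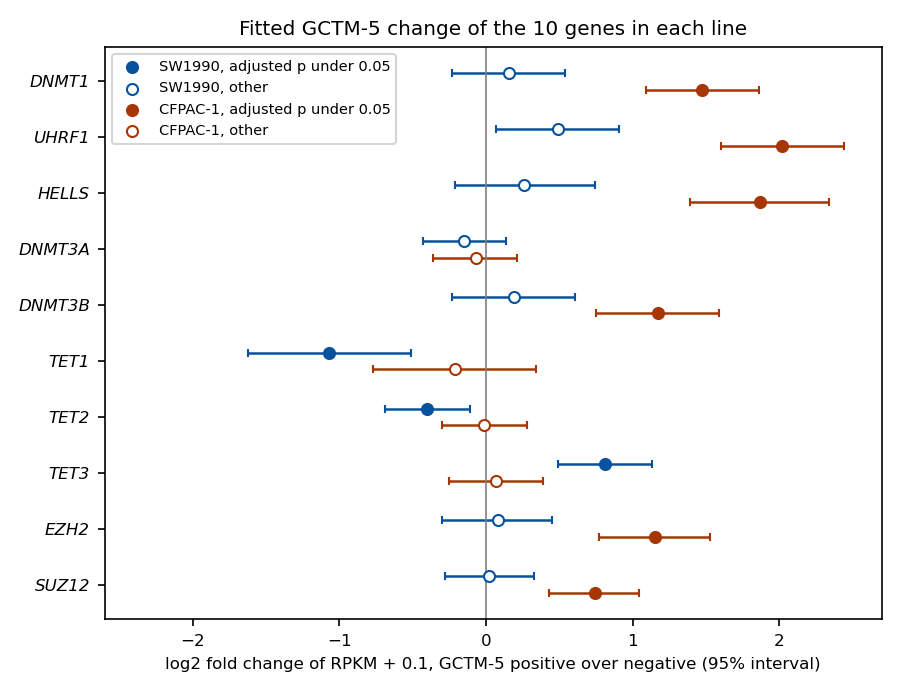
Fitted log2 change of RPKM + 0.1 in GCTM-5 positive over negative cells (horizontal axis) for the 10 genes, in SW1990 (blue) and CFPAC-1 (brown); bars are 95% intervals and filled points have an adjusted p under 0.05. The 6 filled CFPAC-1 points lie to the right of 0, from SUZ12 at 0.74 to UHRF1 at 2.02. The filled SW1990 points are TET1 (-1.07), TET2 (-0.40) and TET3 (0.81).

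The GCTM-5 change itself was compared between the lines, as the change in SW1990 minus that in CFPAC-1. It was called for 7 of the 10 genes, 6 lower and 1 higher, where 17.8% of all genes were called lower and 9.16% higher. The differences were -1.60 for *HELLS* (SE 0.31, adjusted p = 0.00259, limma), -1.53 for *UHRF1*, -1.32 for *DNMT1*, -1.07 for *EZH2*, -0.98 for *DNMT3B* and -0.72 for *SUZ12*, and 0.73 for *TET3* (SE 0.21, adjusted p = 0.0213, limma). The difference for *SUZ12* was not called when each sample was centred on its median (-0.57, adjusted p = 0.0652). That for *TET3* was not called without negative SW1990 replicate 2 (0.62, adjusted p = 0.05) or without negative CFPAC-1 replicate 3 (0.63, adjusted p = 0.059). For *TET1* and *TET2*, the difference between lines did not pass the test, at -0.85 (adjusted p = 0.101, limma) and -0.39 (adjusted p = 0.147, limma), although each was called in SW1990 alone. Without positive CFPAC-1 replicate 3, the smallest library, the difference for *TET1* was called (-1.05, adjusted p = 0.035), as it was with voom on the recovered reads of all 12 samples (-1.19, adjusted p = 0.0319).

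Between the lines, more of these genes were called in negative than in positive cells. In negative cells 8 of the 10 genes were called, 7 higher in SW1990 and 1 lower (*TET3*, -0.39, adjusted p = 0.0329, limma), where 40.7% of all genes were higher and 28.2% lower. The log2 differences of the 7 were 2.15 for *SUZ12*, 2.04 for *UHRF1*, 1.85 for *DNMT1*, 1.44 for *DNMT3B*, 1.24 for *HELLS*, 1.01 for *EZH2* and 0.47 for *TET2*. The median over the 10 genes was 1.13, beside 0.19 for all genes. The *TET2* difference was lost under sample centring (0.28, adjusted p = 0.069) and quantile normalisation (0.30, adjusted p = 0.0517). That of *TET3* was lost without negative SW1990 replicate 2 (-0.27, adjusted p = 0.134), negative SW1990 replicate 3 (-0.40, adjusted p = 0.0601), negative CFPAC-1 replicate 2 (-0.37, adjusted p = 0.0808) or negative CFPAC-1 replicate 3 (-0.28, adjusted p = 0.141), and with the compared groups fitted alone (-0.39, adjusted p = 0.0696).

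In positive cells 3 of the 10 genes were called, all higher in SW1990, where 32.9% of all genes were higher and 29.3% lower. These were *SUZ12* at 1.44 (SE 0.14, adjusted p = 3.05e-06, limma), *DNMT1* at 0.53 (SE 0.18, adjusted p = 0.0196, limma) and *UHRF1* at 0.50 (SE 0.19, adjusted p = 0.0385, limma). *HELLS* and *EZH2* overlapped between the positive groups, with 95% intervals from -0.84 to 0.12 and from -0.44 to 0.31. *DNMT3B* at 0.46 (adjusted p = 0.0529, limma) and *TET3* at 0.35 (adjusted p = 0.0567, limma) did not overlap between these groups and missed the threshold narrowly. Both passed without negative SW1990 replicate 1 or 2, *DNMT3B* also without positive CFPAC-1 replicate 1 (0.62, adjusted p = 0.0172), and *TET3* also without negative CFPAC-1 replicate 1 (0.35, adjusted p = 0.0455). *DNMT3B* passed as well with a pseudocount of 1 (adjusted p = 0.0476), a mean RPKM of at least 1 (0.0489), quantile normalisation (0.04), the replicate block (0.047) and no eBayes trend (0.0481), and *TET3* with the compared groups alone (0.0494) and with voom (0.0311). *TET1* was called lower in SW1990 without positive CFPAC-1 replicate 3 (-0.64, adjusted p = 0.0433). The call for *DNMT1* was lost without positive SW1990 replicate 1 (0.41, adjusted p = 0.0836) or 3 (0.52, adjusted p = 0.0504) or positive CFPAC-1 replicate 2 (0.38, adjusted p = 0.0863). The call for *UHRF1* was lost without those samples (0.33, 0.53 and 0.41) and also without positive CFPAC-1 replicate 3 (0.48, adjusted p = 0.0788) or negative CFPAC-1 replicate 2 (0.50, adjusted p = 0.0503). It was also lost under quantile normalisation (0.45, adjusted p = 0.0517), with the compared groups fitted alone (0.50, adjusted p = 0.0574) and without the eBayes trend (0.50, adjusted p = 0.0504), and so in 8 of 22 settings.

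Genes near *SUZ12* on chromosome 17 were looked at after the size of its difference between lines had been seen. Of the 10 fitted protein-coding neighbours, 5 on each side, 9 were called higher in negative SW1990 than in negative CFPAC-1 cells and 1 (*RAB11FIP4*, -2.40) was lower, with a median of 1.64 on the log2 scale. In positive cells 10 of 10 were higher in SW1990, with a median of 1.22. Among them, *RHBDL3* (means of 0.342 and 0.125 RPKM in SW1990, 0.00654 and 0.00547 in CFPAC-1) passed the filter only through SW1990. So did *OMG* (0.334 and 0.254 RPKM in SW1990, 0.0337 and 0.0617 in CFPAC-1). The direction of both was set by the filter. Over all genes 40.7% were called higher in negative and 32.9% in positive SW1990 cells. *UTP6*, next to *SUZ12*, had means of 16.5 and 17.1 RPKM in SW1990 and 5.57 and 8.26 RPKM in CFPAC-1. *ZNF207*, at the far end, had 75.0 and 80.4 RPKM in SW1990 and 37.5 and 40.8 RPKM in CFPAC-1. The neighbours of *DNMT3B* gave like counts, with 9 of 10 higher in negative and 10 of 10 in positive cells and medians of 1.03 and 0.81. Among those, *BPIFB1* passed the filter only through SW1990. Around *DNMT1* 7 and 9 of 10 were higher (medians 0.92 and 1.21), and around *UHRF1* 8 and 7 (medians 0.77 and 0.51). Those of *TET2* went the other way, with 7 and 9 of 10 lower in SW1990 and medians of -0.54 and -0.98. Among the *TET2* neighbours, *CXXC4* and *NPNT* passed the filter only through CFPAC-1.

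**Figure D3:**
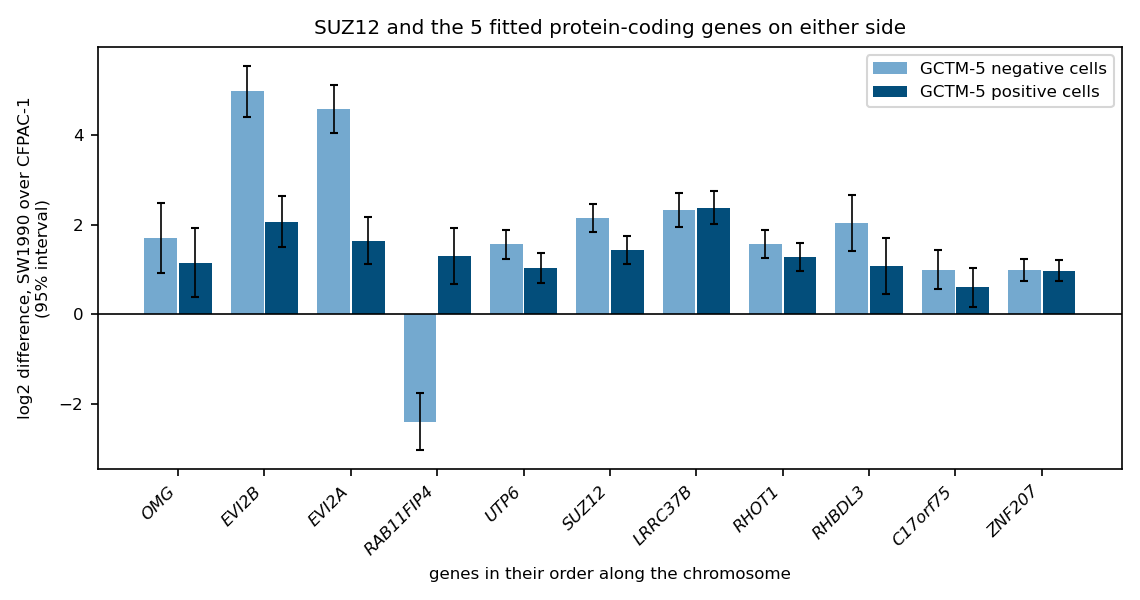
Fitted log2 difference of SW1990 over CFPAC-1 (vertical axis) for SUZ12 and 10 neighbouring genes in chromosome order, in GCTM-5 negative (light) and positive (dark) cells; bars start at 0 and error bars are 95% intervals. In positive cells SUZ12 (1.44) and its 10 neighbours lie above 0, and in negative cells RAB11FIP4 (-2.40) is the exception.

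Genes of the cell cycle moved with the 6 genes that rose in CFPAC-1. Of 27 S phase genes, 27 were called higher in positive CFPAC-1 cells, with a median log2 change of 1.75, and 11 were called higher in SW1990, with a median of 0.36. Of 24 genes of G2/M phase, 22 were called higher in CFPAC-1 (median 0.79) and 1, *PLK1*, in SW1990 (median 0.17). None of either list was called lower in either line. Over all genes, 22.3% were called higher in CFPAC-1 and 11.3% in SW1990. The steepest S phase changes in CFPAC-1 were those of *CLSPN*, a checkpoint mediator (2.95), *CDC45*, a helicase subunit (2.62, on few reads in negative cells), and *GINS2*, another (2.30). In SW1990 they were those of *CDC6*, *RFC2* and *CDT1*, at 0.81, 0.58 and 0.54. *AURKB*, *MKI67* and *CDC20* led the G2/M list in CFPAC-1, at 1.26, 1.15 and 1.14.

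The mean log2 level of the S phase list was 3.06, 2.96 and 2.90 in negative CFPAC-1 cells and 4.88, 4.53 and 4.83 in positive ones. It was 4.57, 4.44 and 4.15 in negative and 4.91, 4.61 and 4.74 in positive SW1990 cells. The negative CFPAC-1 samples were thus the low ones for this list, as they were for the 6 genes. After the mean of each line was subtracted, the Pearson correlation with the S phase mean over the 12 samples was 0.99 for *UHRF1*, 0.98 for *DNMT1*, 0.95 for *HELLS* and *EZH2*, 0.90 for *DNMT3B* and 0.85 for *SUZ12*. It was -0.20 for *DNMT3A*, -0.37 for *TET1*, -0.20 for *TET2* and 0.27 for *TET3*. These correlations are descriptions, since the points share libraries and the same groups of 3. Set against the S phase median, the CFPAC-1 change was 0.27 above it for *UHRF1* and 0.12 above it for *HELLS*, and it lay below it by 0.28 for *DNMT1*, 0.58 for *DNMT3B*, 0.60 for *EZH2* and 1.01 for *SUZ12* on the log2 scale. The part of the cell cycle in the changes of these genes was not tested.

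**Figure D4:**
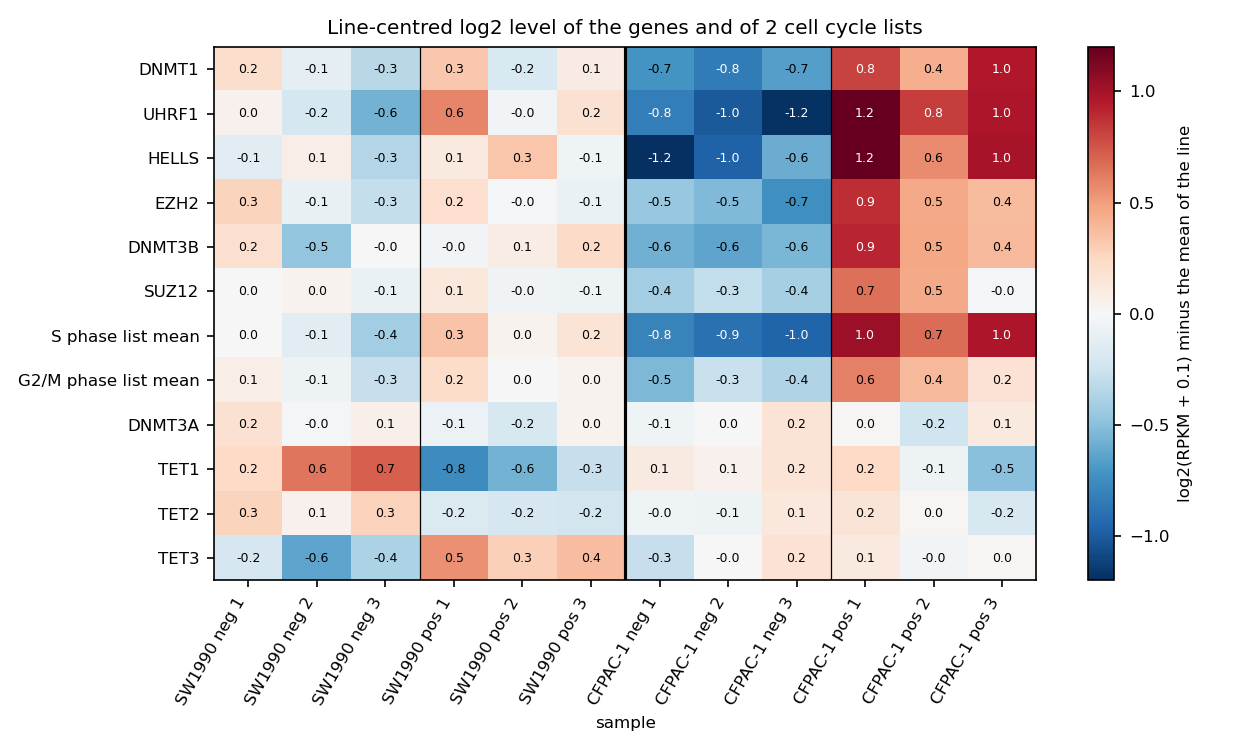
Log2(RPKM + 0.1) minus the mean of its line (colour and printed value) for the 10 genes and the means of the S phase and G2/M lists (rows) in the 12 samples (columns). In CFPAC-1 the first 8 rows are negative in the 3 negative samples, from -0.3 to -1.2, and in SW1990 the row of TET3 runs opposite to that of TET1.

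Among the TET genes themselves, line-centred *TET1* correlated with *TET2* at 0.83 and with *TET3* at -0.82, again over 12 samples in 4 groups. For each of the 10 genes, the closest genes by the same line-centred correlation were also looked up. These were *HNRNPU* and *NASP* for *DNMT1* (0.993 and 0.992), *ORC1* and *RFWD3* for *UHRF1* (0.996 and 0.995), *POLE2* and *TK1* for *HELLS* (0.975 and 0.970), and *MYBL1* and *UBR7* for *EZH2* (0.987 and 0.985). *DDX11* and *LRP8* were closest to *DNMT3B* (0.972 and 0.969), and *SLC25A24* and *PGAM1* to *SUZ12* (0.990 and 0.988). *NASP* carries histones, *ORC1* belongs to the origin recognition complex, *POLE2* to a replicative polymerase, and *TK1* makes thymidine phosphate. These were picked for mention, and the functions of the others are not described, among them all those closest to *EZH2*, *DNMT3B* and *SUZ12*. The closest genes were *ZACN* and *LOC389765* for *DNMT3A* (0.908 and 0.885), *TPST1* and *FBLN5* for *TET1* (0.969 and 0.961), *KAT6B* and *CHD6* for *TET2* (both 0.957) and *RUNX1* and *LCK* for *TET3* (0.971 and 0.964).

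Of 14 further subunits and regulators, 6 were called higher and 2 lower in positive CFPAC-1 cells (median 0.11), and 2 were called lower in SW1990 (median -0.03). Over all genes, 22.3% were called higher and 14.2% lower in CFPAC-1, and 16.9% were called lower in SW1990. Higher in CFPAC-1 were *EPOP*, listed as *C17orf96*, an accessory subunit (1.03), *PHF19*, another (0.97), and the histone chaperone *RBBP4* (0.77). *KDM6B*, a demethylase that removes the PRC2 mark, fell by 0.59 and the accessory subunit *PHF1* fell by 0.54. In SW1990 the lower genes were *C17orf96* (-0.48) and *BAP1*, a histone deubiquitinase (-0.37). The core subunits *EED* and *RBBP7*, named after their values were seen, rose in CFPAC-1 by 0.54 (adjusted p = 0.00581, limma) and 0.67 (adjusted p = 0.000161, limma). In SW1990 their changes of 0.08 and 0.11 did not pass.

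Some forms of Polycomb repressive complex 1 (PRC1) read the mark of PRC2. Of 22 PRC1 genes, 5 were called higher and 3 lower in CFPAC-1, and 4 were called lower in SW1990. These counts were near the shares over all genes, which were 22.3% higher and 14.2% lower in CFPAC-1 and 16.9% lower in SW1990. The median change of the 22 PRC1 genes was -0.03 in CFPAC-1 and -0.13 in SW1990. *CBX2*, a chromodomain subunit, was called in opposite directions. It stood at 6.07, 4.67 and 5.67 RPKM in negative and 0.898, 0.684 and 1.02 RPKM in positive SW1990 cells, and its log2 change was -2.53 (SE 0.21, adjusted p = 3.77e-06, limma). In CFPAC-1 it stood at 0.0617, 0.0915 and 0.120 RPKM on 6 to 12 reads in negative cells and at 0.627, 0.661 and 0.522 RPKM in positive cells, a log2 change of 1.89 (SE 0.21, adjusted p = 8.41e-05, limma). The difference between the lines was -4.42 (adjusted p = 4.45e-06, limma).

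*CBX6*, a like subunit, also fell in SW1990 (-0.98) and rose in CFPAC-1 (0.41), while *PCGF2* fell in both (-0.46 and -0.35). *KDM2B*, which brings PRC1 to CpG islands, rose in CFPAC-1 (0.41), and *PHC3* (-0.76) and *PCGF3* (-0.62) fell.

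Of 18 readers, repair enzymes and partners of DNA methylation, 17 were fitted and 1 was at 0 in all samples. In CFPAC-1, 7 were called higher and 3 lower (median 0.23), and in SW1990 1 was called higher and 2 lower (median -0.11). The shares over all genes were 22.3% higher and 14.2% lower in CFPAC-1, and 11.3% higher and 16.9% lower in SW1990. *CDCA7*, a partner of HELLS, stood at 7.68, 4.85 and 5.12 RPKM in negative and 23.5, 16.0 and 16.8 RPKM in positive CFPAC-1 cells, an increase of 1.67 (SE 0.21, adjusted p = 0.000149, limma). In SW1990 it had means of 36.5 and 35.5 RPKM. Its relative *CDCA7L* (0.80) and the methyl-CpG family member *MBD3* (0.79) also rose in CFPAC-1, and the methyl-DNA readers *ZBTB4* (-0.47) and *ZBTB33* (-0.40) fell. In SW1990, *IDH1*, a metabolic enzyme whose product is a co-substrate of TET enzymes, rose (0.47), and *ZBTB38*, a methyl-DNA reader (-0.91), and *MBD4*, a repair glycosylase (-0.31), fell.

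**Figure D5:**
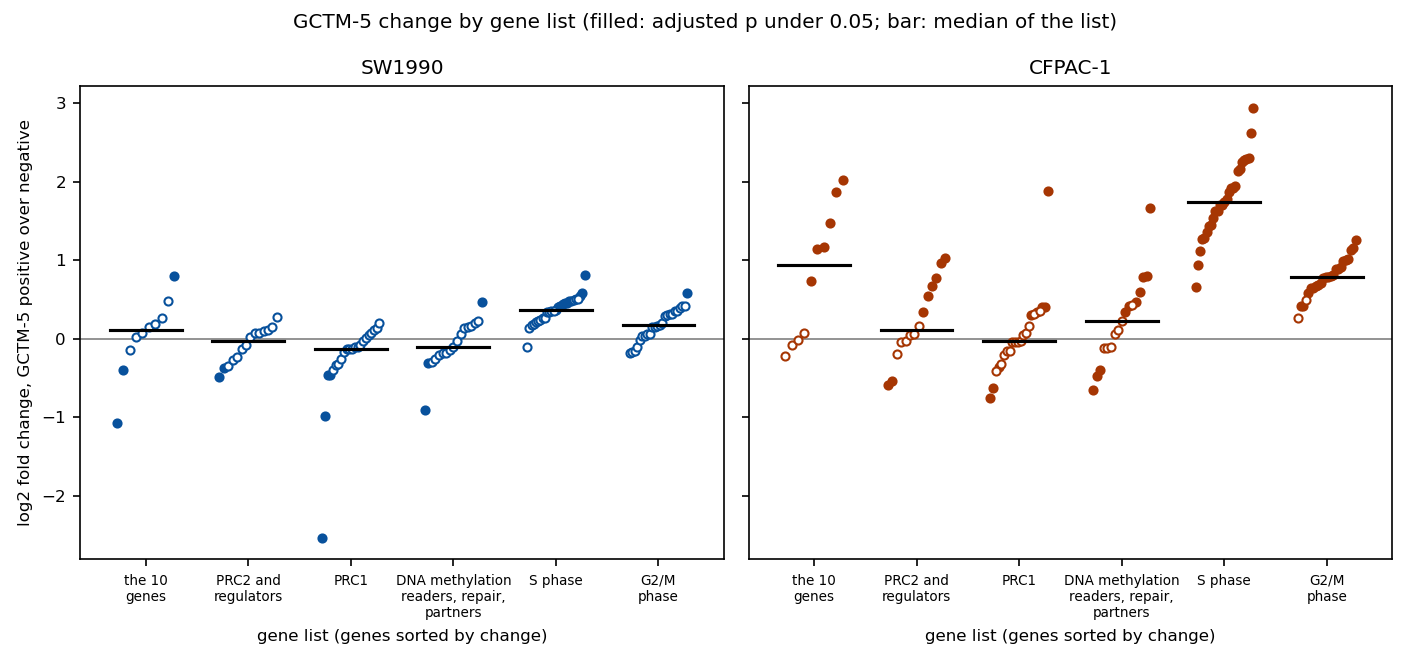
Log2 change of GCTM-5 positive over negative cells (vertical axis) for the 10 genes and 5 gene lists in SW1990 (left) and CFPAC-1 (right); each point is a gene, filled where its adjusted p was under 0.05, and the black bar is the median of the list. The S phase list has medians of 0.36 in SW1990 and 1.75 in CFPAC-1, and the lowest point in SW1990 is CBX2 at -2.53.

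Genes that DNA methylation or PRC2 is known to silence were examined as 2 lists. Of 14 germline genes known to be held silent by promoter methylation, 7 were listed at 0 in all 12 samples and 2 passed the filter. Neither was called in either GCTM-5 comparison, and the summed level of the 14 was at most 0.988 RPKM in any sample. Of 16 developmental transcription factors that are textbook PRC2 targets, 5 were listed at 0 in all samples and 9 passed the filter. Their summed level was 40.0 to 41.0 RPKM in negative and 29.5 to 31.8 RPKM in positive SW1990 cells, and in CFPAC-1 38.5 to 40.6 (negative) and 33.7 to 36.9 RPKM (positive). In positive SW1990 cells 5 of the 9 were called lower and 1 higher (median -0.82), and in CFPAC-1 1 was called lower and 1 higher (median 0.00). The shares over all genes were 16.9% lower and 11.3% higher in SW1990, and 14.2% lower and 22.3% higher in CFPAC-1. *LBX1* passed the filter only through negative SW1990 cells, so its direction was set by the filter, and *GATA4* passed only through SW1990. *LBX1* had 1.02, 1.67 and 1.10 RPKM in negative and 0.241, 0.183 and 0.00 RPKM on 0 to 6 reads in positive SW1990 cells, and it was listed at 0 in CFPAC-1. *GATA4*, a regulator of endoderm, had means of 1.26 and 0.550 RPKM in SW1990 (-1.06, adjusted p = 0.0288, limma). *SIX2* fell in SW1990 (-0.97) and rose in CFPAC-1 (0.67), and *LHX1* rose in SW1990 (0.84).

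Centring each sample on its median moved the median of all genes by -0.10 on the log2 scale in the CFPAC-1 comparison, by 0.15 in the difference between lines and by -0.19 in the comparison of negative cells. The share of called genes that were higher then went from 61.1% to 47.8% in CFPAC-1, and from 34.0% to 50.0% in the difference between lines. Quantile normalisation gave 50.0% and 47.0%. At an adjusted p under 0.05, the 6 genes called in CFPAC-1 were called in 22 of 22 alternative settings of the fit, and under the criterion of over 2-fold with an unadjusted p under 0.01 they were called apart from *SUZ12*. The settings gave log2 changes from 0.59 for *SUZ12* to 2.11 for *UHRF1*.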

How the data were processed

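The authors deposited RPKM values per gene, which they made by aligning reads to hg19/GRCh37 and normalising counts for library size and gene length with QuasR. Its version, the annotation and the use of strand are not given in the sources used here. The paper names a TruSeq kit, while the labels name a strand-specific SureSelect kit. Each of the 12 samples had a column of its own, and groups were taken from the labels.

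The log2 of RPKM + 0.1 was fitted for 16236 genes (mean RPKM of at least 0.1) with limma 3.58.1 in R 4.3.3 (4 group means, eBayes with trend). The 5 comparisons were 2-sided, and p-values were adjusted by Benjamini-Hochberg over all genes. Fold changes on this scale understate those of low genes. TCC, which the paper names, was not used. Scripts were tested on simulated data.

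Library totals were recovered from single-exon genes, and 19654 of 19654 genes above 0 then gave whole reads within 0.01 of a read. On simulated data 12 of 12 totals and 99.9% of 16791 genes came out exact. With 3 samples a group, an exact permutation test could not go below p = 0.1 and was not used.

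The 10 genes and all lists were chosen with earlier results of these data known. Up to 3 called genes per list, direction and line were named by largest change, and 2 closest genes per gene by line-centred correlation. Some genes that this rule names are not reported here. Neighbours and promoter words were chosen after the values were seen. Promoters are RefSeq windows of GRCh38.p14, which gave at least 1 window for 10 of 10 genes. Gene coordinates are those of GENCODE 44 mapped to GRCh37, the build of the reads. Alternatives were pseudocounts of 1 and 0.01, other filters on low values, sample centring, quantile normalisation, fits of the compared groups alone, a replicate block, eBayes without trend, voom on recovered reads, a criterion of over 2-fold with an unadjusted p under 0.01 (the study does not say whether its p was adjusted), and each sample left out in turn. Python 3.11.15 with pandas 2.3.3, numpy 2.4.6 and matplotlib 3.10.9 was used.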

Additional observations from a re-analysis of the deposited data

Results flagged for a closer look

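The GCTM-5 change differed between SW1990 and CFPAC-1 by the interaction term of the limma fit for 7 of the 10 genes, each at an adjusted p under 0.05. The change in SW1990 minus that in CFPAC-1, on the log2 scale, was -1.32 for *DNMT1*, -1.53 for *UHRF1*, -1.60 for *HELLS*, -0.98 for *DNMT3B*, -1.07 for *EZH2*, -0.72 for *SUZ12* and 0.73 for *TET3*. For the first 6, the change was from 0.02 to 0.49 in SW1990 and from 0.74 to 2.02 in CFPAC-1. For *TET3* it was 0.81 in SW1990 and 0.07 in CFPAC-1. No rule for single samples that stand apart was applied to groups of 3, although each sample was left out in turn.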

How the results depend on the processing

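The 10 genes were followed through 5 comparisons under up to 22 alternative settings each. Of these values 1016 kept their direction and their side of the threshold, 32 lost a call, 20 gained one and 17 changed sign, and none of the 17 was called in either setting. The number of the 10 genes called was 1 in SW1990 under the criterion of over 2-fold with an unadjusted p under 0.01 (3 at an adjusted p under 0.05), and between positive cells it ranged from 1 to 5 when single samples were left out. Sign changed for *TET3* in CFPAC-1 (-0.03 centred, -0.04 quantile normalised, -0.05 to 0.17 over omissions of single samples), *DNMT3A* in the difference between lines (0.07 and 0.08 under the same scalings, -0.17 to 0.00 over omissions), *SUZ12* in SW1990 (-0.06 quantile normalised, -0.04 to 0.06 over omissions) and *TET2* in CFPAC-1 (0.01 with voom, -0.09 to 0.08 over omissions). Over omissions alone it changed for *EZH2* in SW1990 (-0.05 to 0.23) and between positive cells (-0.16 to 0.09), *TET2* between positive cells (-0.01 to 0.16) and *DNMT3A* in CFPAC-1 (-0.15 to 0.03). The cause was not tested.

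With a replicate block, 3, 6, 7, 8 and 4 of the 10 genes were called in SW1990, in CFPAC-1, in the difference between lines, between negative and between positive cells, and all genes called were 4386, 5729, 4130, 11331 and 10343. The numbers were not taken to pair the samples, and whether they mark a shared sort is not given in the sources used here. Deviations of same-numbered samples correlated at 0.18, 0.02 and 0.12 in SW1990 and at -0.02, 0 and -0.06 in CFPAC-1. Under the block *UHRF1* gained (adjusted p = 0.0336) and *TET2* lost (adjusted p = 0.0907) its call in SW1990, and *DNMT3B* gained one between positive cells (adjusted p = 0.047). *TET1* had no value at a mean RPKM of at least 1. Low read numbers limit *TET1*, *HELLS* in negative CFPAC-1 cells, and positive CFPAC-1 replicate 3.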
